A study of Mus musculus with 12 samples.

Results

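Aloxe3, Cbln1 and Dctn1 were 3 autosomal genes whose mean signal differed between the genotypes of this mouse study, although none lies on chromosome 7, which carries Apoe, and none is a usual marker of a leukocyte type. They were picked because their values differed by genotype in these arrays, so their genotype differences are given as a description without a test. The array held 1 probe for each, 3 of 46237 probes in all, and all 3 were among the 26390 probes bright enough to test. CD11c+ cells were taken from mouse spleens, and total RNA was hybridised to Illumina MouseWG-6 v2 arrays. CD11c is used as a marker of dendritic cells, but their share among the cells was not measured. There were 4 groups of 3 samples: ApoE-/- mice on normal chow (samples 1 to 3), ApoE-/- mice on a high-cholesterol diet (samples 4 to 6), Bl6 mice fed chow (samples 7 to 9) and Bl6 mice fed high cholesterol (samples 10 to 12). The ApoE-/- mice lack the gene throughout the body, and nothing else is labelled as altered in either strain. Age, length of diet, breeding history, whether a sample is 1 mouse or a pool, and which arrays shared a chip are not given in the sources used here. All p-values therefore rest on the scatter of these samples alone, and that scatter could be technical.

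The members act in unrelated places. Aloxe3 encodes an epidermal lipoxygenase, eLOX-3, which works as a hydroperoxide isomerase: it takes the fatty acid hydroperoxide made by its partner Alox12b and turns it into an epoxyalcohol, a step needed for the water barrier of skin. Cbln1 encodes cerebellin 1, a secreted protein of the C1q family that granule cells of the cerebellum release and that ties presynaptic neurexins to a postsynaptic delta glutamate receptor. Dctn1 encodes p150Glued, the large subunit of dynactin, which binds microtubules and lets the motor dynein carry cargo and position organelles in nearly every cell. In GRCm38.p6, Aloxe3 lies at chr11:69125417-69149115, Cbln1 at chr8:87468853-87472592 and Dctn1 at chr6:83165909-83200118.

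The arrays were alike in depth: 47.7% to 50.3% of all probes were detected, meaning a detection p under 0.05, and the background mean was 95.8 to 111 intensity units. Levels below are either raw intensities or log2 values after background correction and quantile normalisation, and ± is an SD over samples for a level and the model's standard error for a difference. Apoe itself parted the arrays as labelled, from 5.50 to 5.93 on 6 ApoE-/- arrays and from 12.18 to 13.29 on 6 Bl6 arrays. Of 4 tested sex-linked genes, 3 split in the same way. Xist, which coats the inactive X chromosome, lay between 4.17 and 4.39 on ApoE-/- arrays and between 9.75 and 10.88 on Bl6 arrays. Eif2s3y, a Y-linked gene, lay between 9.75 and 10.44 on ApoE-/- arrays and between 4.11 and 4.41 on Bl6 arrays, and Kdm5d, also Y-linked, split likewise (7.42 to 7.67 against 4.18 to 4.63). By these 3 genes the ApoE-/- arrays had the pattern of male cells and the Bl6 arrays that of female cells. The only tested probe of the Y-linked Uty was detected on all 12 arrays and did not pass (0.64 ± 0.16, adjusted p = 0.0771). Its other probes were each detected on 0 or 1 array. Genotype and these sex-linked states cannot be told apart for any gene below. The deposited tables also disagree on which diet the 6 ApoE-/- arrays had. The names of the intensity table were used, and values with the ApoE-/- diets exchanged are added where they matter; no Bl6 comparison is touched.

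Aloxe3 read lower in ApoE-/- cells on every array. Its probe, ILMN_1248005, had intensities of 147, 140.4 and 152 in the ApoE-/- chow samples and of 139.7, 145 and 130.3 in the ApoE-/- high-cholesterol samples. Bl6 chow samples gave 179, 179 and 186, and Bl6 high-cholesterol samples 167, 194 and 163. The highest ApoE-/- value thus lay under the lowest Bl6 value, and neither diet changed this order. The signal was dim throughout. It stood 31.1 to 40.7 units above the array's background mean in ApoE-/- samples and 61.4 to 90.4 units above it in Bl6 samples, and it was detected on all 12 arrays with detection p-values of at most 3.6e-07.

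After normalisation the order of the Aloxe3 levels was Bl6 chow (6.63 ± 0.019, n = 3), Bl6 high cholesterol (6.47 ± 0.19), ApoE-/- chow (5.74 ± 0.012) and ApoE-/- high cholesterol (5.72 ± 0.21). Within each genotype the diets overlapped. The genotype difference averaged over diets was -0.82 ± 0.09, a level 0.566 times that of Bl6, with -0.90 ± 0.13 under chow and -0.75 ± 0.13 under high cholesterol. Replicates were close: the residual SD was 0.141, at the 20.4th percentile of tested probes.

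Cbln1 also read lower in ApoE-/- cells on every array, at a level near background. Its probe, ILMN_1252953, gave intensities of 120.2, 117 and 124 in ApoE-/- chow samples and 109.9, 112 and 114 in ApoE-/- high-cholesterol samples. Bl6 chow samples gave 179.6, 179 and 203, and Bl6 high-cholesterol samples 162, 146 and 145. Every Bl6 array was brighter than every ApoE-/- array. The ApoE-/- signal stood only 1.34 to 17.7 units above background, against 43.0 to 102 units in Bl6.

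Most ApoE-/- arrays still detected Cbln1. The probe was detected on 6 of 6 Bl6 arrays, where its detection p was at most 6.4e-06, and on 5 of 6 ApoE-/- arrays. The detector's own p-value was 0.356 on sample 4, which missed, and 0.0372 on sample 5, which narrowly passed. With a stricter detection p of 0.01, 4 of 6 ApoE-/- arrays kept the call. The normalised levels were 6.71 ± 0.11 in Bl6 chow, 6.03 ± 0.33 in Bl6 high-cholesterol, 4.82 ± 0.010 in ApoE-/- chow and 4.71 ± 0.47 in ApoE-/- high-cholesterol samples (n = 3 each). The ApoE-/- groups overlapped, and the Bl6 groups did not. Averaged over diets the genotype difference was -1.61 ± 0.15, with -1.89 ± 0.22 under chow and -1.32 ± 0.22 under high cholesterol. With the ApoE-/- diets exchanged the last values were -2.0 and -1.21.

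Because the ApoE-/- readings of Cbln1 sit so near background, the size of its difference depends on how background is removed. Without background correction the averaged difference was -0.59, and with a larger offset of 50 it was -0.94. Aloxe3 went from -0.82 to -0.37 and -0.55 under the same changes. The order of the arrays by genotype is already present in the raw intensities of both genes.

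**Figure D1:**
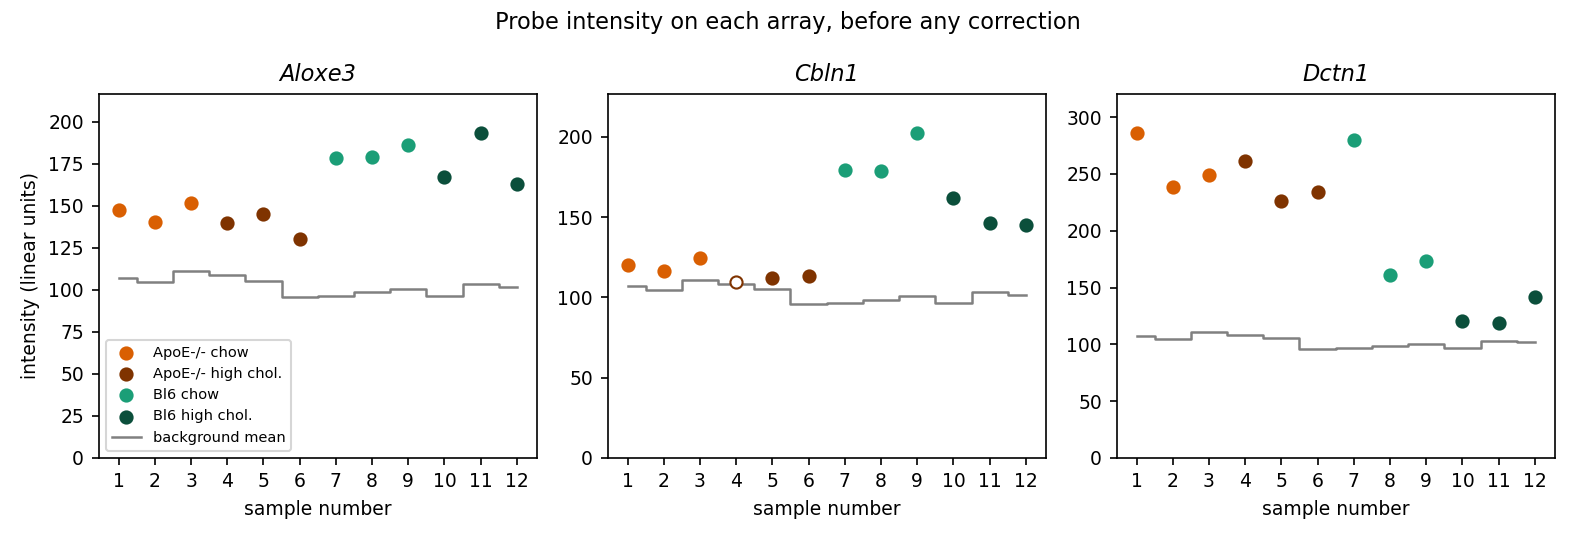
Raw intensity of the single probe of each gene (vertical axis, linear units from 0) on samples 1 to 12 (horizontal axis), coloured by group, with the background mean of each array as a grey line and an open circle where the probe was not detected. Aloxe3 and Cbln1 are dimmer on all 6 ApoE-/- arrays, Cbln1 lies near the grey line there, and for Dctn1 sample 7 of the Bl6 chow group reads 279.5, among the ApoE-/- values.

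Dctn1 ran the other way and was not uniform in Bl6 cells. Its probe, ILMN_2691157, gave intensities of 287, 239 and 249 in ApoE-/- chow samples and 261, 226 and 234 in ApoE-/- high-cholesterol samples. Bl6 chow samples gave 279.5, 161 and 173, and Bl6 high-cholesterol samples 121, 119 and 142. The 6 ApoE-/- arrays were all high, 5 of the 6 Bl6 arrays were lower than any of them, and sample 7 stood with the ApoE-/- arrays. All 12 arrays detected the probe, and the weakest detection p was 0.00627, in sample 10. The signal stood 120 to 179 units above background in ApoE-/- samples and 62.6 to 183 units in Bl6 chow samples. In Bl6 high-cholesterol samples it was dim, at 15.4 to 40.0 units.

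On the normalised scale Dctn1 read 7.32 ± 0.21 in ApoE-/- chow, 7.31 ± 0.21 in ApoE-/- high-cholesterol, 6.82 ± 0.75 in Bl6 chow and 5.38 ± 0.43 in Bl6 high-cholesterol samples (n = 3 each). In Bl6 chow cells sample 7 read 7.69 against 6.36 and 6.41 in samples 8 and 9. It lay 1.28 above the next of the other 5 Bl6 arrays, a distance over 1 that sample 7 showed for 28 of the 26390 tested probes (0.106%). The counts for the other arrays ran from 9 to 51 probes. The residual SD of Dctn1 was 0.459, larger than that of 95.6% of tested probes.

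Averaged over diets the genotype difference of Dctn1 was 1.21 ± 0.23, a level 2.32 times that of Bl6. It was 0.50 ± 0.33 under chow and 1.93 ± 0.33 under high cholesterol. The chow value rested on sample 7: it was 0.94 without that array, and 0.27 and 0.30 without samples 8 and 9. The averaged difference without sample 7 was 1.43.

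**Figure D2:**
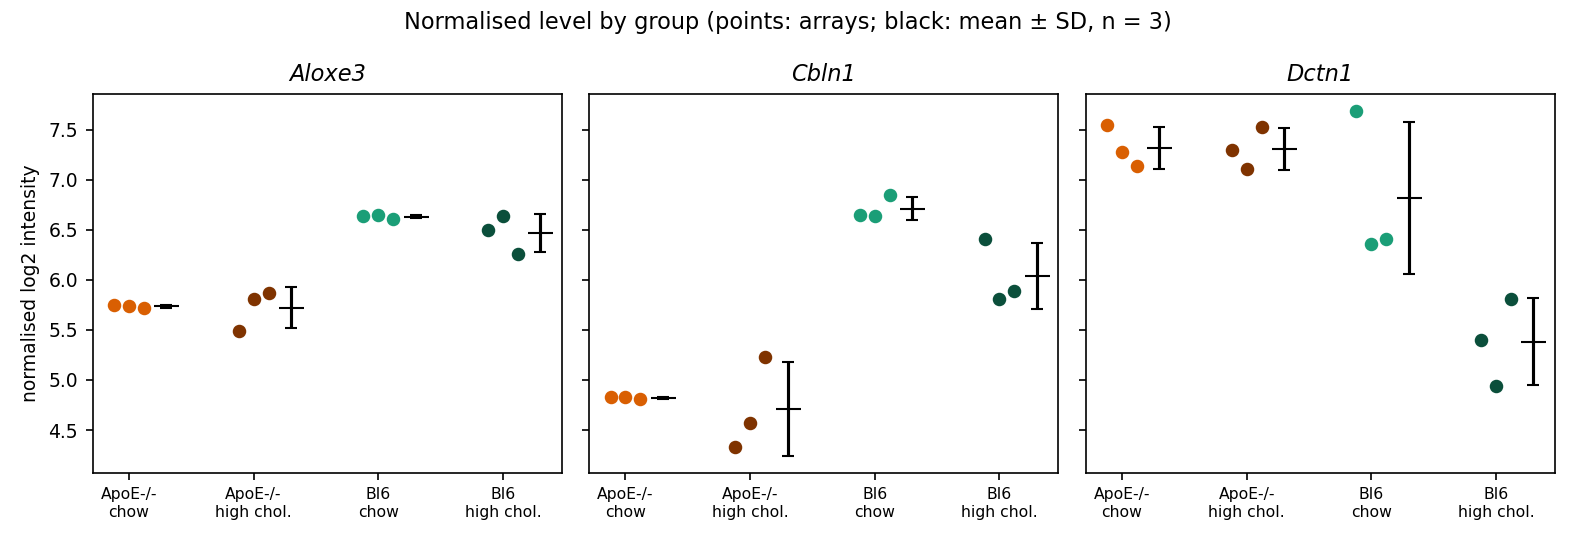
Normalised log2 intensity (vertical axis) of Aloxe3, Cbln1 and Dctn1 in the 4 groups (horizontal axis), with a coloured point for each array and the mean ± SD (n = 3) in black. Aloxe3 and Cbln1 are lower in both ApoE-/- groups, and Dctn1 is lowest in the Bl6 high-cholesterol group at 5.38 and spreads widest in Bl6 chow (SD 0.75).

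Among all tested probes 423 (1.6%) differed by genotype averaged over diets at an adjusted p under 0.05 (limma, Benjamini-Hochberg), 172 up (0.652%) and 251 down (0.951%). On the deposited log2 table, which has no background correction or quantile step, the split was 1276 up and 377 down. The 6 ApoE-/- and 6 Bl6 values did not overlap for 614 probes (2.33%), with the ApoE-/- values higher for 1.08% and lower for 1.25%, Aloxe3 and Cbln1 among them and Dctn1 not. All 3 genes were chosen on this contrast, so nothing is read from these shares. By size of the averaged difference among all 26390 tested probes, Cbln1 stood at place 26, Dctn1 at 48 and Aloxe3 at 151. The place of Cbln1 rests on the background correction: without it Cbln1 was at -0.59 and Dctn1 at 0.60, and each of the 9 genes named next had a larger difference than both, from -0.69 for Ccn5 to -1.39 for Ptgis.

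The largest autosomal differences off chromosome 7 that passed the test were mostly in genes of other kinds. Ltf (1.76 ± 0.25), Camp (1.68 ± 0.22), Lcn2 (1.57 ± 0.24) and Ngp (1.42 ± 0.25), which encode proteins of neutrophil granules, rose in ApoE-/- samples, as did Lrg1, a secreted glycoprotein (1.49 ± 0.15), and Gzmk, a protease of cytotoxic lymphocytes (1.66 ± 0.18). Ptgis, prostacyclin synthase (-1.56 ± 0.25), Ccn5, a matricellular protein (-1.39 ± 0.25), and Cbr2, a carbonyl reductase (-1.36 ± 0.18), fell. Their adjusted p-values ran from 5.7e-04 for Lrg1 to 0.022 for Ngp. Ngp and Ccn5 each missed the threshold on leaving out any 1 of 6 particular arrays, with adjusted p-values up to 0.0642 and 0.0586.

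Diet was not named in the choice of the genes, so its contrasts were tested. The same values also enter the genotype difference on each diet. By size of that difference Dctn1 stood at place 22 under high cholesterol and 2019 under chow. If the choice leaned on 1 diet, the diet and interaction p-values, intervals and places by size are not free of it. The high-cholesterol diet went with lower Dctn1 and Cbln1 readings in Bl6 cells, but neither difference passed over all probes. Dctn1 read -1.44 ± 0.33 on the diet in Bl6 samples (95% interval -2.15 to -0.72, unadjusted p = 9.8e-04, adjusted p = 0.147). All 3 high-cholesterol values lay under all 3 chow values, which was so for 16% of tested probes in either direction. By size this was the 30th largest diet difference of 26390, a place taken under the main correction only. The high-cholesterol readings were dim, so the size depends on how background is removed. Across the alternative runs the difference ranged from -1.67 to -0.66. Without sample 7 it was -1.0 (adjusted p = 0.157), so the lower reading did not rest on that array alone. Over the alternatives its adjusted p ran from 0.0462, on the deposited log2 table, to 0.348, when only the Bl6 groups were fitted. The first of these passed, at a difference of -0.69.

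Cbln1 read -0.68 ± 0.22 on the diet in Bl6 samples (95% interval -1.15 to -0.20, adjusted p = 0.26), again with no overlap between the diets. Aloxe3 read -0.16 ± 0.13 (95% interval -0.45 to 0.13, adjusted p = 0.686), and the highest high-cholesterol value reached the chow values. Of all tested probes, 10 (0.0379%) passed in this comparison, 6 up (0.0227%) and 4 down (0.0152%) against 7 and 2 with median scaling, and 3155 (12%) had an unadjusted p under 0.05. None of the 3 genes was among the 10.

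In ApoE-/- cells no diet difference was seen in any of them. Dctn1 read -0.01 ± 0.33 (95% interval -0.73 to 0.71), Aloxe3 -0.01 ± 0.13 (-0.30 to 0.28) and Cbln1 -0.11 ± 0.22 (-0.59 to 0.37), each with an adjusted p of 1 by limma. The diets' values overlapped for each of the 3 genes, and 8.31% of tested probes had diet groups without overlap. Exchanging the ApoE-/- diets only turns these signs. In this contrast 0 of 26390 probes (0%) passed by limma, with 981 (3.72%) at an unadjusted p under 0.05.

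The difference between those diet effects was tested as the interaction. For Dctn1 the diet difference in ApoE-/- minus that in Bl6 was 1.42 ± 0.46 (95% interval 0.41 to 2.44, unadjusted p = 0.00997, adjusted p = 0.519), for Cbln1 0.56 ± 0.31 (adjusted p = 0.703) and for Aloxe3 0.15 ± 0.19 (adjusted p = 0.9). None passed, and 0 of all tested probes (0%) did by limma, with 2006 (7.6%) at an unadjusted p under 0.05. Without sample 7 the Dctn1 interaction was 0.99 (adjusted p = 0.458), and over all alternatives its adjusted p ran from 0.424 to 0.685. Its size ranged from 0.65 to 1.66 over the same alternatives. Averaged over genotypes the diet differences were -0.72 ± 0.23 for Dctn1 (adjusted p = 0.573), -0.39 ± 0.15 for Cbln1 (adjusted p = 0.614) and -0.09 ± 0.09 for Aloxe3 (adjusted p = 0.871). No probe passed that contrast by limma either (0%), and 1962 (7.43%) had an unadjusted p under 0.05.

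**Figure D3:**
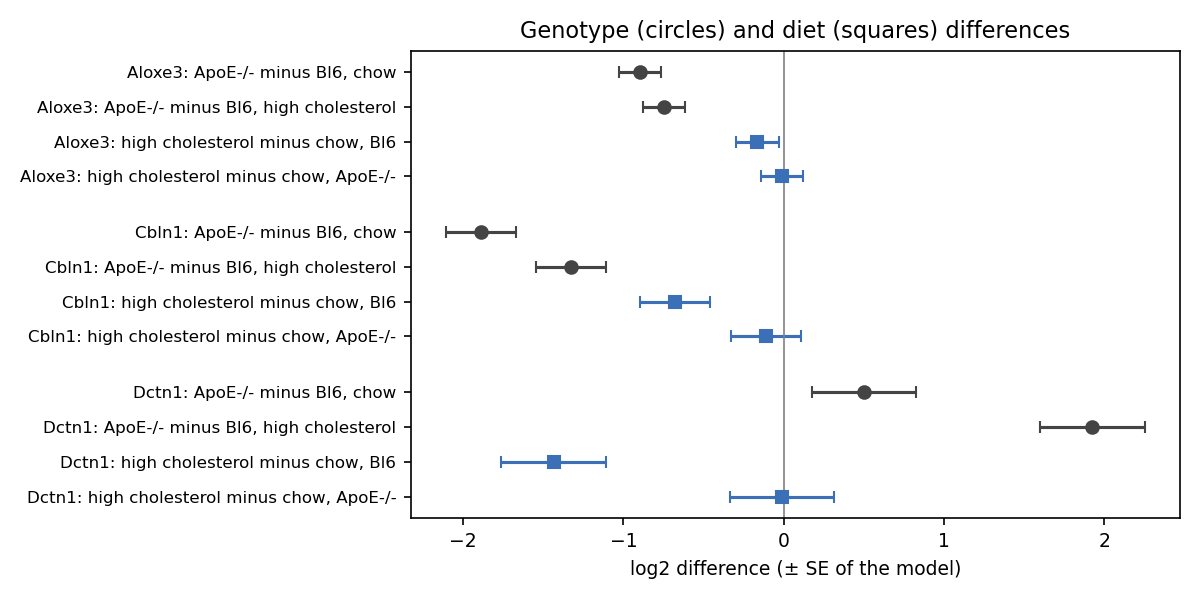
Log2 differences of Aloxe3, Cbln1 and Dctn1 (horizontal axis, with the model's SE as bars) between genotypes on each diet (circles, a description of the contrast that chose the genes) and between diets in each genotype (squares). The diet differences of -1.44 for Dctn1 and -0.68 for Cbln1 in Bl6 samples did not pass. Those in ApoE-/- samples lie near 0, and the interaction passed for neither gene.

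Relatives and partners of the 3 genes passed the genotype test at about the share of all tested genes. Of 76 other genes in the lists of lipoxygenases, the epidermal lipoxygenase pathway, cerebellins and their partners, dynactin, and dynein with its adaptors, 49 were tested, and 1 rose and 0 fell with genotype. Their median genotype difference was 0.02, against 0.01 over all 14326 tested genes, of which 281 (1.96%) passed. In the diet comparisons, where 0.0558% of genes passed in Bl6 and 0% in ApoE-/- samples, 0 of the 49 passed by limma. In Bl6 samples 5 had an unadjusted p under 0.05, as did 12% of all tested probes. In ApoE-/- samples it was 1, against 3.72% of probes. These lists were drawn up with earlier results of the data known.

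Lipoxygenases other than Aloxe3 were either undetected or did not pass. Alox12b, the partner that feeds eLOX-3 and its neighbour on the chromosome, was detected on 1 of 12 arrays, and Alox8, Alox12e and Alox15 on 0. Of the 3 tested genes of this list, Alox5, Alox12 and Alox5ap, which is not itself a lipoxygenase, 0 passed. Alox5, which starts leukotriene synthesis in myeloid cells, read 0.32 ± 0.13 higher in ApoE-/- samples (adjusted p = 0.251), opposite in sign to Aloxe3. Its other tested probes read only 0.047 and 0.050 and did not pass either. Alox5ap, the protein that presents arachidonic acid to Alox5, read 0.17 ± 0.09 (adjusted p = 0.42). In the epidermal pathway 0 of 8 tested genes passed. Pnpla1, a lipase-family enzyme of the skin's acylceramides, read -0.48 ± 0.12 (adjusted p = 0.0802), its ApoE-/- values of 6.83 to 7.11 lying inside the Bl6 span of 6.71 to 7.86. Tgm1, a transglutaminase of the cornified envelope, read 0.23 ± 0.23 (adjusted p = 0.695).

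Keratinocyte markers, of the cells in which Aloxe3 is best known, were mostly at background. Krt14, Lor, Ivl and Dsg3 were detected on 0 of 12 arrays, and 1 of the 8 keratinocyte markers was bright enough to test. That marker, Krt10, spanned 7.54 to 7.87 on ApoE-/- arrays and 7.42 to 8.36 on Bl6 arrays and did not pass.

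No other cerebellin or C1q-like gene of the list was measurable: Cbln2, Cbln3, Cbln4 and C1ql1 to C1ql4 did not reach detection on 3 arrays. Of their synaptic partners Nrxn2 read 0.12 ± 0.17 (adjusted p = 0.794) and Nrxn3 -0.23 ± 0.18 (adjusted p = 0.596), both dim, and neither passed. The other tested Nrxn2 probes read -0.28 and -0.15 and did not pass. Of 8 markers of neurons, Snap25 and Neurod1 were detected on 0 arrays. The mean of the 5 tested ran from 4.62 to 5.03 on ApoE-/- arrays and from 4.52 to 5.01 on Bl6 arrays.

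Averaged over diets no other measured subunit of dynactin had a genotype difference near that of Dctn1. Since Dctn1 was chosen for its difference and the others were not, nothing is read from this. The only Dctn1 probe, with means of 7.31 in ApoE-/- and 6.10 in Bl6 samples, was also dimmer than every other measured subunit gene except Capza2. No second Dctn1 probe was there to check it. On chow alone Capza2, a dim capping protein subunit, read 0.63, above the 0.50 of Dctn1. All 10 other measured subunit genes were tested and 0 passed, with genotype differences from -0.10 to 0.15 and a median of 0.02. With 1.96% of all tested genes past the threshold, a count of 0 among 10 says little. Actr1a, the actin-related protein that forms dynactin's filament, spanned 10.65 to 10.77 on ApoE-/- arrays and 10.31 to 10.71 on Bl6 arrays, a difference of 0.15 ± 0.08 (adjusted p = 0.444). Dctn6, a subunit of the pointed end, read 0.10 ± 0.08 (adjusted p = 0.598). Dctn2, which encodes dynamitin and joins p150Glued to the filament, read -0.03 ± 0.08. On the high-cholesterol diet in Bl6 cells these 10 genes had differences from -0.18 to 1.04 with a median of 0.03, and 0 passed. The highest was again Capza2 (adjusted p = 0.24), which was chosen after its values were seen.

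Of 26 tested genes of dynein and its adaptors, 1 rose with genotype and 0 fell, with a median of -0.01. Hook3, an adaptor that joins dynein and dynactin to endosomes and the Golgi, spanned 7.36 to 7.65 on ApoE-/- arrays and 6.51 to 7.31 on Bl6 arrays. It rose by 0.69 ± 0.15 (adjusted p = 0.0447), though its other probe read -0.07 and did not pass (adjusted p = 0.876). The call was lost on leaving out any array other than sample 7, with adjusted p-values of up to 0.111. By diet in Bl6 samples Hook3 read 0.02 ± 0.21 (adjusted p = 0.979). Dync1h1, the heavy chain of the motor, read 0.25 ± 0.13 with genotype (adjusted p = 0.367) and -0.62 with diet in Bl6 samples (adjusted p = 0.223). It was chosen after its values were seen.

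**Figure D4:**
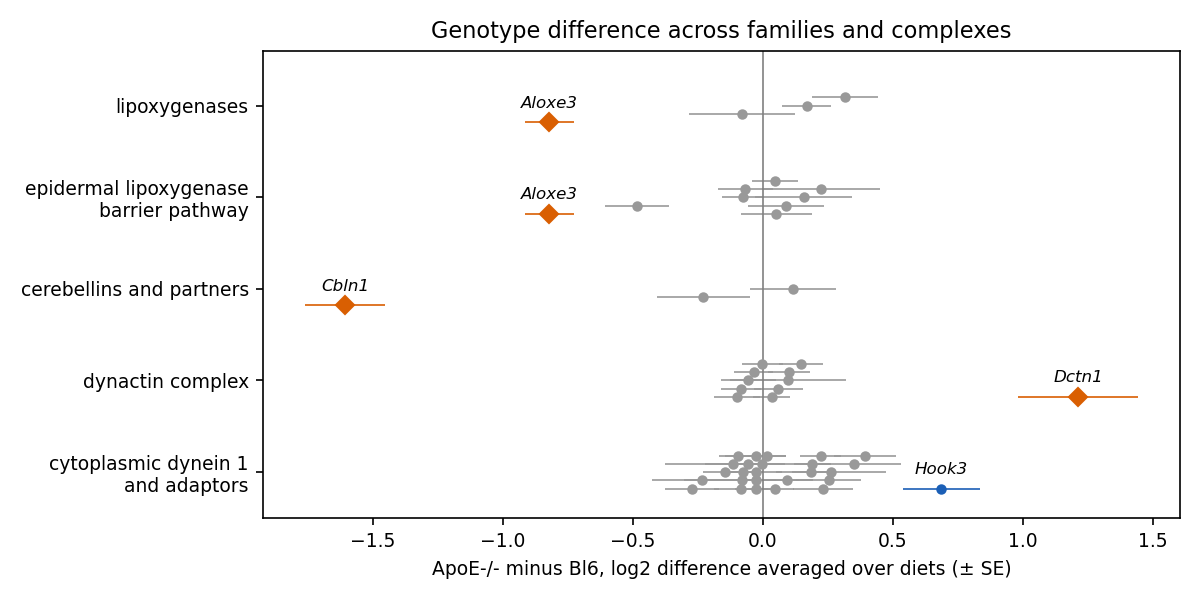
Genotype difference averaged over diets (horizontal axis, log2 ± SE) of each tested gene, by its brightest probe, in 5 lists of related genes (rows). Aloxe3, Cbln1 and Dctn1 are orange diamonds, Hook3, which passed the threshold, is blue, and the others in grey lie between -0.48 and 0.39.

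No neighbouring gene passed the genotype test. For each member the 5 nearest tested genes on either side of it were taken, 30 in all, and 0 passed the genotype contrast. By limma 5 of the 30 had an unadjusted p under 0.05, as did 15.8% of all tested probes. At the background of 1.96% of genes, a count of 0 among 30 says little. Around Aloxe3, within -79.8 to 218 kb of its start coordinate, the genotype differences ran from -0.27 to 0.50. Per1, a clock gene, was the nearest to passing (0.50 ± 0.13, adjusted p = 0.0771), opposite in sign to Aloxe3. Around Cbln1, where tested genes are sparse (-1832 to 861 kb), they ran from -0.35 to 0.38. N4bp1, an RNA-cutting inhibitor of cytokine signalling, read 0.38 ± 0.09 (adjusted p = 0.0562) and passed without background correction (0.34). Around Dctn1, within -50.4 to 314 kb, they ran from -0.14 to 0.19. Mob1a, a cofactor of the Hippo pathway kinases, came nearest (0.19 ± 0.08, adjusted p = 0.297).

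**Figure D5:**
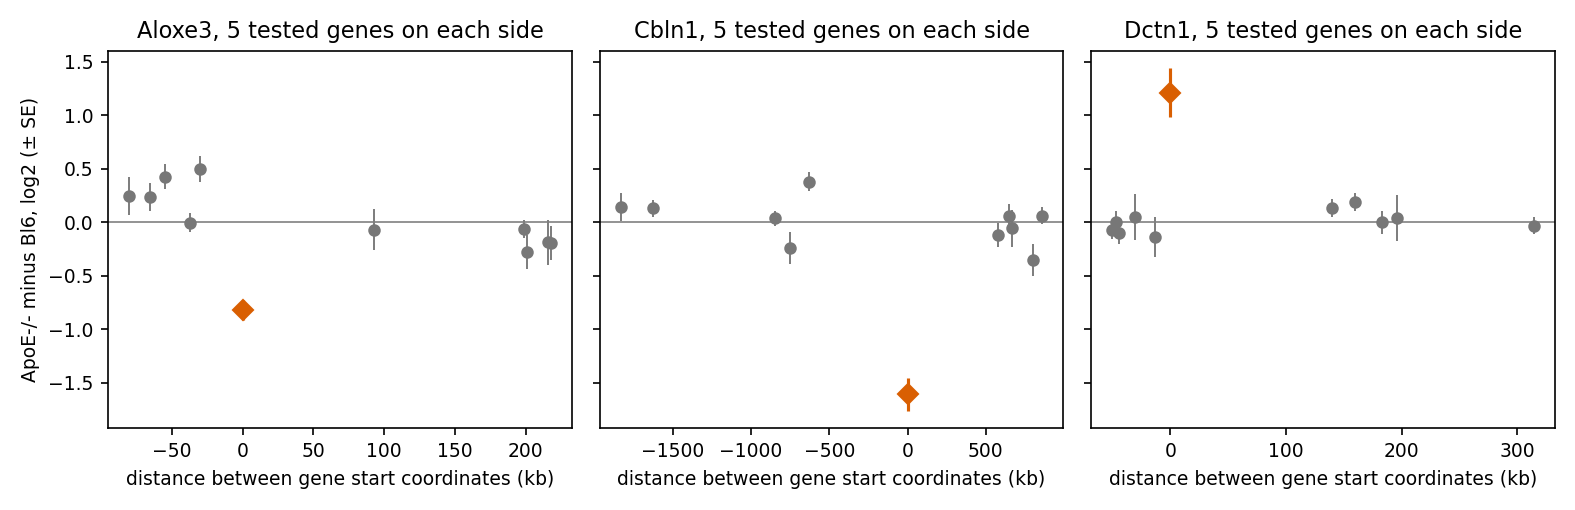
Genotype difference averaged over diets (vertical axis, log2 ± SE) of Aloxe3, Cbln1 and Dctn1 (orange diamonds at 0) and of the 5 nearest tested genes on each side (grey), against the distance between start coordinates in kb. None of the 30 neighbours passed, and their differences lie between -0.35 and 0.50.

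By shape across the 12 arrays, Aloxe3 and Cbln1 resembled each other (Pearson r = 0.95) and other genes that split by genotype, as their choice requires. After removal of group means, which leaves only the variation among replicates, their correlation was 0.46. For Aloxe3 the closest of the named genes were Clasrp, Zbtb45 and Rasgrp4 on chromosome 7, Xist, and Mtus2, with r from 0.96 to 0.97. The lowest were Eif2s3y, Inafm1 and Kdm5d at -0.97 to -0.95. For Cbln1 they were Aloxe3 and the chromosome 7 genes Alkbh6, Nudt19, Zbtb45 and Clasrp, with r from 0.93 to 0.95, and the lowest were Nfkbib, Inafm1 and Flot1. The 5 closest genes of each all had a genotype adjusted p under 0.05 or were themselves chosen for it.

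Dctn1 had other company, since it also varied within Bl6 cells. Its closest genes were Prrc2b, Sox4, Fbs1, Slc15a4 and Kit, with r from 0.91 to 0.93 over 12 arrays. Fbs1 has no position in the gene table, 0 of the others lay on chromosome 7, and 1 passed the genotype contrast, Sox4, a transcription factor (0.88 ± 0.18, adjusted p = 0.0385). Sox4 lost the call with no filter on dim probes and on leaving out any array other than sample 7, with adjusted p-values up to 0.0971. The most opposed were Ryr1, the calcium release channel also on chromosome 7 (r = -0.97), Tmem87b and Mrpl9. Dctn1 correlated with Aloxe3 at -0.61 and with Cbln1 at -0.47, and within groups at -0.26 and 0.12. These correlations share arrays and, for the genotype part, groups, and are given as descriptions.

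Some cell markers differed by genotype, to be read against the 1.96% of all tested genes that passed. Itgax, which encodes CD11c, was detected on all 12 arrays and did not pass (0.14, adjusted p = 0.626). All 12 dendritic cell markers of the list were tested, 0 passed, and their mean spanned 10.15 to 10.24 on ApoE-/- arrays and 10.07 to 10.28 on Bl6 arrays. Of 14 tested neutrophil markers 9 rose and 0 fell, with a list mean of 7.90 to 8.50 on ApoE-/- arrays and 7.10 to 7.46 on Bl6 arrays, and Mmp8 detected on 0 arrays. T cell markers had 3 rises among 12, with 9.25 to 9.53 against 8.86 to 9.17, and NK cell markers 1 rise among 7, with 8.33 to 8.82 against 8.24 to 8.67. Macrophage markers had 2 falls among 13, with 11.85 to 12.09 against 11.89 to 12.31. B cell markers had 0 calls among 10, with 8.95 to 9.31 against 9.13 to 9.91. The 5 tested erythroid markers also had none, with 10.31 to 11.09 against 9.66 to 11.27. The part of these cells in the readings of Aloxe3, Cbln1 and Dctn1 was not tested, and in bulk RNA fewer cells of a type and less RNA per cell cannot be told apart. Sample 7, high in Dctn1, had a neutrophil mean of 7.25, inside the Bl6 range, with the highest erythroid mean (11.27) and the highest dendritic cell mean (10.28) of the 12 arrays.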

How the data were processed

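The intensities are linear probe signals of Illumina MouseWG-6 v2 arrays, neither background-subtracted nor scaled in the deposited table, which gives, per the file headers, a detection p-value beside each. The second deposited table holds log2 values, each column equal to the log2 of 1 intensity column plus a constant of 0 to 0.443. Its 6 ApoE-/- columns hold the arrays of the other diet. The scanner software and how the constants were set are not given in the sources used here.

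Intensities were corrected with limma 3.58.1 (R 4.3.3) by nec (offset 16, background modelled through the detection p-values). They were then quantile-normalised on the linear scale, and the log2 was taken last. Probes detected (p under 0.05) on 3 or more of 12 arrays, 26390 in all, were fitted with 4 group means and moderated variances (8 residual and 3.42 prior degrees of freedom). Tests were two-sided, with Benjamini-Hochberg adjustment over all tested probes and a threshold of 0.05. The code was tested on simulated data. Symbols came from the platform's list, with 35784 probes naming 1 gene, 0 several and 10453 none. They were updated through GRCm38.p6, where 2399 of the named probes had no match. The brightest tested probe stood for each gene.

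Named genes were the 3 members, in each list the genes that passed or else the lowest p-values, the nearest gene to passing on each flank set, the closest and most opposed genes by Pearson correlation, Apoe, Xist, Eif2s3y and Kdm5d, and the 10 largest autosomal differences off chromosome 7. Predicted and clone names were passed over. Members and lists were chosen with earlier results of these data known. Alternatives were other background corrections, scalings, filters, array names, and single-array omissions. Precision is limited by 3 arrays a group.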

Additional observations from a re-analysis of the deposited data

How the results depend on the processing

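In every alternative run, the genotype differences of the 3 genes kept their direction. Their sizes fell where less background was removed, by construction of the log scale for dim probes. For Aloxe3, averaged, under chow and under high cholesterol, they were -0.55, -0.61 and -0.50 with an offset of 50, -0.37, -0.41 and -0.33 without background correction, and -0.31, -0.33 and -0.28 on the deposited log2 table. Cbln1 gave -0.94, -1.16 and -0.72, then -0.59, -0.74 and -0.45, then -0.52, -0.67 and -0.36. Dctn1 on the high-cholesterol diet gave 1.34, 0.93 and 0.99, and averaged 0.60 without correction and 0.66 on the deposited table. That table was used with its own names, which exchange the ApoE-/- diets, and without quantile normalisation. It also carries a constant of up to 0.443 on each array, so its values differ from the others by more than background. Cbln1 was detected on 11 arrays, and on 10 at a detection p under 0.01. The diet differences in ApoE-/- samples turned sign when those diets were exchanged (0.012 for Aloxe3, 0.11 for Cbln1, 0.010 for Dctn1). Leaving out 1 array they ran from -0.085 to 0.11, -0.37 to 0.076 and -0.12 to 0.10, all with adjusted p-values of 1. The Dctn1 diet difference in Bl6 passed only on the deposited table (-0.69, adjusted p = 0.0462). No other diet or interaction call of the 3 genes was gained.

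Dynein and adaptor genes past the threshold numbered 4 on the deposited table, 0 with no filter on dim probes and 0 to 1 leaving out 1 array. Epidermal pathway genes numbered 1 on the deposited table, without correction and at an offset of 50, and 0 to 1 leaving out 1 array. Neighbours numbered 4 on the deposited table, 2 without correction, 2 at an offset of 50, 1 with no filter, 1 under the stricter filter and 0 to 1 leaving out 1 array. Of the other named genes, 26 were refitted under the alternatives (the called ones, Per1, N4bp1 and Mob1a). They kept direction in all 494 refits, with 45 calls lost and 11 gained. The remaining named genes, which did not pass, were not refitted.

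Over all probes, the count by genotype was 423, and 1138 without correction, 896 at an offset of 50, 642 under the stricter filter and 1653 on the deposited table. It was 142 to 280 without any 1 array other than samples 4 and 7, 295 without sample 4 and 605 without sample 7. The count by diet in Bl6 was 10, and 266, 133, 41 and 221 under the same alternatives, 4 with only those groups, and 2 to 41 leaving out 1 array. Its split of 6 up and 4 down was 7 and 2 with median scaling and 119 and 147 without correction. The interaction gave 10, 8 and 8 probes without correction, at an offset of 50 and on the deposited table, and the averaged diet contrast 3, 2 and 8, and 1 under the stricter filter. No paired analysis was possible because the running sample numbers are not shared between groups. Dim signal limits all 3 genes, Cbln1 in ApoE-/- samples most.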
